A study of Rattus norvegicus with 6 samples.

Results

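The genes described here are 9 components and regulators of the complement system in cultured rat atrial fibroblasts: C1r, C1s, C2, Cfb, C3, Cfi, Serping1, Cd55 and Cd59. They were chosen by symbol, with earlier results of these data known, and each had 1 entry among the 40154 genes of the deposited gene table. All cells came from hearts of Sprague-Dawley rats 1 to 3 days old, were separated from atrial myocytes by preplating, and carry the treatment label "Atrial differentiation" in every library. In the si-NC group the cells were transfected with a control siRNA and in the si-GPD1L group with an siRNA against Gpd1l, and polyadenylated RNA was sequenced 24 h after transfection from 3 libraries per group. No untransfected cells are among the libraries analysed here. The labels do not say whether the digit in si-GPD1L 1, 2 and 3 numbers replicates of 1 siRNA or different siRNAs, nor whether the libraries came from separate cultures or animals, so the p-values measure only the spread between these libraries, which may be technical.

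Complement is a cascade of plasma and tissue proteins that tags targets for uptake and can end in a pore in their membrane. In the classical pathway, the protease C1r activates C1s, which cuts C4 and C2, and the fragments form a convertase that cuts C3. In the alternative pathway, factor B (Cfb) takes the place of C2 in the convertase. Factor I (Cfi) and the C1 inhibitor (Serping1) restrain the cascade in fluid, and Cd55 and Cd59 restrain it on the cell surface. The liver makes most plasma complement, and fibroblasts are among the other cells that transcribe several of its genes.

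The si-NC libraries held 17467880 to 18900501 counts and those of si-GPD1L 16892255 to 20149732. Gpd1l itself (ID 363159, chr8:122957570-122987236, minus strand, rn6) gave 262, 332 and 313 normalized counts in si-NC and 220, 208 and 302.5 in si-GPD1L, on a scale that sets all libraries to the same effective size (a normalized count). The groups overlapped, because the library si-GPD1L 3 lay within the si-NC range. The log2 fold change of Gpd1l was -0.31 (SE 0.15), with an edgeR quasi-likelihood adjusted p of 0.234 and an exact two-sided permutation p of 0.2, so the label was not borne out by a passed test of the targeted transcript. The log2 value was -0.50 without si-GPD1L 3 (edgeR adjusted p 0.0733) and -0.21 without si-GPD1L 2 (edgeR adjusted p 0.579), and did not pass in any alternative.

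Of the 13 fibroblast markers listed, all were tested, and their summed level ran from 1440980 to 1803790 normalized counts in the si-NC libraries and from 1712330 to 1810940 in those of si-GPD1L. The lowest sum was that of si-NC 1. Col1a1 and Col3a1 made up most of the sum, so it says little about the other markers. From si-NC to si-GPD1L the mean of Col1a1 went from 762835 to 907843 and that of Col3a1 from 548766 to 457366, and neither passed. Dcn and Lum, small proteoglycans of the matrix, were the 2 that passed the test, both lower in si-GPD1L, where 6.36% of all genes tested passed. Of the 13, 6 had an unadjusted p under 0.05 in edgeR's quasi-likelihood test. The hepatocyte markers Alb, Fga and Fgb were at 0 in every library, and that list of 7 summed to at most 13.8 normalized counts in si-NC and 14.2 in si-GPD1L.

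The members fell into tiers of expression in si-NC that spanned the whole range from abundant to scarcely detected. The deposited TPM scale divides counts by 1 length per gene, so genes can be compared as far as that length holds. On it, C1r had the highest level, at 395 ± 33.8 TPM (SD, n = 3), followed by C1s at 179 ± 27.5 TPM. Serping1 stood at 64.2 ± 8.04 TPM and Cd59 at 42.2 ± 0.333 TPM. The convertase component C2 was at 9.45 ± 2.11 TPM and Cd55 at 4.98 ± 0.667 TPM. Cfb, C3 and Cfi were the scarcest, at 1.57 ± 0.629, 1.37 ± 0.205 and 0.220 ± 0.0968 TPM. In si-NC each gene lay above the next in every library, except that the ranges of Cfb and C3 overlapped.

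In si-GPD1L the order on this scale changed at 1 place. That change depends on the length used for Cd55, 3312 bases, whereas its 7 listed transcripts ran from 1433 to 2142 bases. A shorter length would raise the TPM of Cd55 in both groups. Cfb, at 7.52 ± 2.35 TPM, came to stand between C2 (17.4 ± 2.43 TPM) and Cd55 (6.57 ± 0.848 TPM), and the ranges of Cfb and Cd55 overlapped. The other neighbours did not overlap, with C1r at 470 ± 51.6, C1s at 188 ± 35.8, Serping1 at 113 ± 24.7, Cd59 at 33.1 ± 3.33, C3 at 2.54 ± 0.340 and Cfi at 0.231 ± 0.0196 TPM. C1r and C1s together made up between 81.9 and 82.7% of the members' summed TPM in si-NC but between 77.6 and 79.7% in si-GPD1L.

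**Figure D1:**
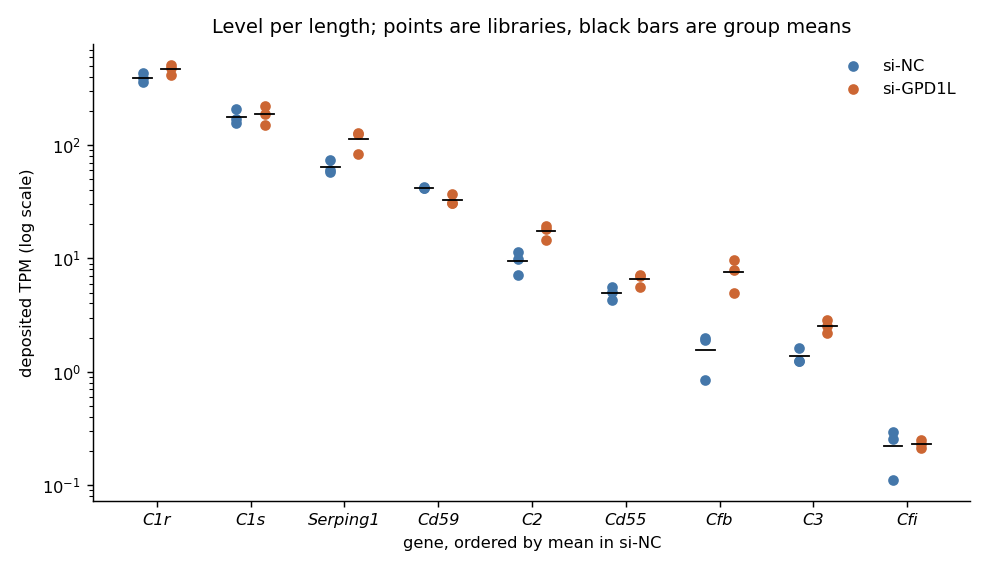
Deposited TPM of the 9 genes in each of the 6 libraries, on a log axis, with si-NC and si-GPD1L side by side. C1r and C1s lie highest in every library and Cfi lies lowest. Cfb rises from a mean of 1.57 TPM in si-NC to 7.52 TPM in si-GPD1L. Its place relative to Cd55 depends on the length used for Cd55.

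The test of the difference was edgeR's quasi-likelihood test on the counts, with p-values adjusted by Benjamini-Hochberg over all 14852 genes tested. Of the 9 members 8 were tested, and Cfi did not reach the minimum count. Among the 8, 4 rose in si-GPD1L (Cfb, C3, C2 and Serping1), 1 fell (Cd59), and 3 did not pass an adjusted p of 0.05 (C1r, C1s and Cd55). Over all genes tested the share that passed was 6.36%, of which 4.03% were higher and 2.33% lower. Cfb was the only member that also passed a log2 fold change of 1, and 1.48% of all genes tested did so in that direction. The members' median log2 fold change was 0.53, from -0.44 to 2.20, beside a median of -0.0049 over all genes tested. Because the members were chosen with earlier results of these data known, this is a description and no test of complement as a set. The 29 other complement genes tested, given below, had a median of -0.037. The 5 members that passed were also those whose groups did not overlap, and 29.0% of all genes tested had groups that did not overlap. In bulk RNA, fewer cells of a type and less RNA per cell cannot be told apart.

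**Figure D2:**
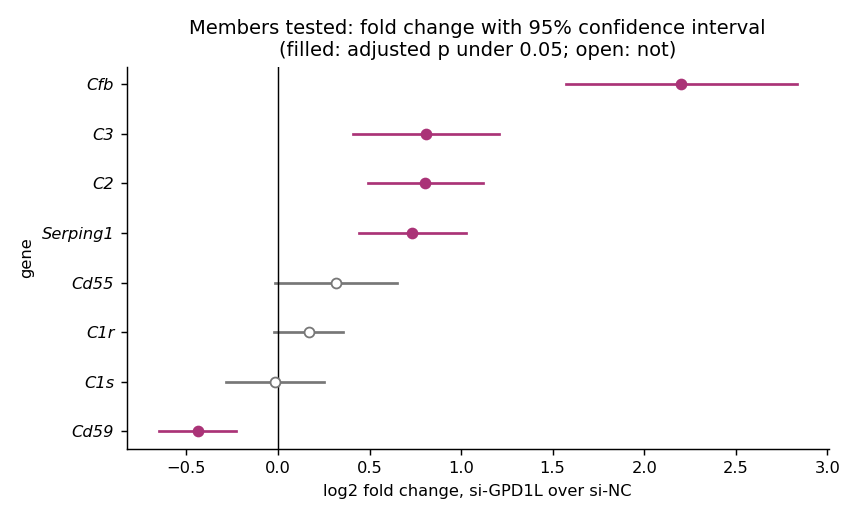
Log2 fold change of the 8 members tested, si-GPD1L over si-NC, with 95% confidence intervals from the edgeR fit and filled points where the adjusted p was under 0.05. Cfb lies farthest from 0 at 2.20, C2, C3 and Serping1 lie between 0.73 and 0.81, Cd59 lies below 0 at -0.44, and the intervals of C1r, C1s and Cd55 include 0.

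Of the 11 endothelial markers 10 were tested and 4 were higher in si-GPD1L (Pecam1, Cdh5, Tie1 and Plvap), and the summed level lay between 1956 and 2408 normalized counts in si-NC but between 2641 and 2768 in si-GPD1L, with no overlap. In edgeR's quasi-likelihood test 5 of the 10 had an unadjusted p under 0.05. None of these 11 genes was at 0 in every library. Of the cardiomyocyte list, 1 of 11 tested genes passed (Pln, lower), and 5 had an unadjusted p under 0.05. Its sum lay between 36917 and 38811 normalized counts in si-NC but between 33071 and 36187 in si-GPD1L, while the means of single genes differed in both directions, from 10910.5 to 9197 for Tnnt2 and from 1378 to 1545 for Actn2, neither of which passed. The macrophage list, whose cells also make complement, had 0 of 11 tested genes past the adjusted p in edgeR's quasi-likelihood test, 1 at an unadjusted p under 0.05, 0 in DESeq2 and 1 in edgeR's exact test. Its sum lay between 2962 and 3214 normalized counts in si-NC and between 2530 and 3633 in si-GPD1L. Of the smooth muscle and pericyte list, 2 of 8 genes passed (Des, lower, and Cspg4, higher), and 4 of 8 in DESeq2 and in edgeR's exact test. Its sums were 12169 to 14594 against 12195 to 13881, and 4 of the 8 had an unadjusted p under 0.05. Of the mesothelial list, 0 of 5 passed in the 3 tests and 1 had an unadjusted p under 0.05, with sums of 713 to 809 against 687 to 736. Over all genes tested, 6.36% passed in edgeR's quasi-likelihood test. The share at an unadjusted p under 0.05 was not computed over all genes. What part these lists had in the members' differences was not tested.

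The proteases that start the classical pathway were the most abundant members and did not pass the test. C1r (ID 312705, chr4:157126060-157136825, plus strand, rn6), which activates C1s, gave 8143, 8092 and 8803 normalized counts in si-NC and 8305, 9585 and 10247 in si-GPD1L. The groups overlapped at si-GPD1L 1, which lay inside the si-NC range. The log2 fold change was 0.17 (SE 0.087), with a 95% confidence interval of the fold of 0.985 to 1.28 and an edgeR adjusted p of 0.279. The minus-strand loci LOC102553847 and LOC108350760 overlap C1r, but each held at most 16 counts in a library.

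C1s (ID 192262, chr4:157143592-157155592, minus strand), the protease that cuts C4 and C2, lies 6766 bases from C1r on the other strand. It gave 3759, 3796 and 4590 normalized counts in si-NC and 3241, 4049 and 4736 in si-GPD1L. The groups covered nearly the same range, and si-GPD1L 1 was the lowest and si-GPD1L 3 the highest library of the 6. The log2 fold change was -0.014 (SE 0.12), with an interval of the fold of 0.823 to 1.19 and an edgeR adjusted p of 0.964. The 2 proteases act in 1 complex, and their TPM ratio, C1r to C1s, was 2.32, 2.28 and 2.05 in si-NC and 2.74, 2.53 and 2.32 in si-GPD1L.

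A RefSeq promoter sequence was matched for 4 of the 9 members (C1r, C3, Cfi and Cd55), in the build GRCr8, which is not the build of the counts. The stretches before the transcription start of C1r and C3 are shown because one belongs to a member that did not pass the test and the other to a member that rose, and both hold a match to the same motif. Capitals mark a match to TTGCNNAA on either strand, a core recognised by C/EBP factors, which was searched for after the sequences had been seen. The C3 stretch is chr9:2201340-2201589 (minus strand) and the C1r stretch is chr4:159098763-159099012 (plus strand), each printed 5′ to 3′ up to the base before the start.
C3: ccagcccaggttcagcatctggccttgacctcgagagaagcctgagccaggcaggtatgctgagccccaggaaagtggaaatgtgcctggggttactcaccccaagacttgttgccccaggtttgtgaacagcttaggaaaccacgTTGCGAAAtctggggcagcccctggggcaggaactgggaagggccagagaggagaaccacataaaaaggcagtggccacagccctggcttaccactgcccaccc
C1r: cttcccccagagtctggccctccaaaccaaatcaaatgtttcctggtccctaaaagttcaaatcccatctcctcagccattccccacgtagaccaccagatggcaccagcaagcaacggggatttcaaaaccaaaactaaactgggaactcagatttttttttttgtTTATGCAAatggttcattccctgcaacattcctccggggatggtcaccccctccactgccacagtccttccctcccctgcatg

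In C3 the match lay from -104 to -97 relative to the start, on the strand of the gene, and in C1r from -83 to -76 on the opposite strand. The same motif occurred in 10.6% of the 33469 rat promoters of 300 bases, so a match is common. The interferon-stimulated response element (GAAA, any 2 bases, GAAA) was in 3.92% of promoters, the gamma-activated sequence TTCNNNGAA in 8.87% and the NF-kB site in 7.51%, each searched on both strands, with overlaps between motifs allowed. None of these 3 was in the windows of C1r, C3, Cfi or Cd55. A missing match says only that these letters are not in this window.

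Both convertase proteases rose, and Cfb had the larger fold change. Cfb (ID 294257, chr20:4536206-4542073, minus strand), the serine protease of the alternative pathway convertase, gave 17.8, 37.0 and 38.1 normalized counts in si-NC and 94.9, 181 and 149.7 in si-GPD1L. Every si-GPD1L library lay above every si-NC library, and the lowest si-NC library held 18 counts as sequenced. The level rose 4.60-fold (95% interval 2.97 to 7.12), a log2 fold change of 2.20 (SE 0.29) with an edgeR adjusted p of 0.000491. The call held under all 14 alternatives, with the log2 fold change between 1.92 and 2.41 and the adjusted p between 1.77e-25 and 0.00572.

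C2 (ID 24231, chr20:4542340-4561152, minus strand), the corresponding protease of the classical convertase, lies 266 bases from Cfb on the same strand. It gave 154, 197 and 223 normalized counts in si-NC and 282, 351 and 367 in si-GPD1L, again without overlap. The level rose 1.75-fold, a log2 fold change of 0.80 (SE 0.14) with an edgeR adjusted p of 0.00565. It too passed under all 14 alternatives, with the adjusted p reaching 0.0441 in one of them.

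The balance of the neighbours C2 and Cfb was lower in each si-GPD1L library than in any si-NC library. The ratio of C2 to Cfb in TPM was 8.52, 5.22 and 5.75 in si-NC and 2.93, 1.91 and 2.41 in si-GPD1L, so C2 exceeded Cfb in all 6 libraries but by less in si-GPD1L. The exact two-sided permutation p of the log2 ratio was 0.10, the smallest that 3 libraries against 3 can give, and 0.125 after adjustment over the 5 ratios computed. These 5 ratios were not among the results planned in advance. They are formed from the same libraries and genes as the single values, so they are a description and no separate support.

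C3 (ID 24232, chr9:9721137-9747084, plus strand), the component on which all pathways converge, was scarce in these cells. It gave 52.4, 48.7 and 61.5 normalized counts in si-NC and 82.9, 107 and 94.8 in si-GPD1L, and the groups did not overlap. The level rose 1.75-fold (95% interval 1.33 to 2.31), a log2 fold change of 0.81 (SE 0.18) with an edgeR adjusted p of 0.0221. The direction held in all 14 alternatives but the call did not: the adjusted p was 0.0782 without si-NC 2, 0.137 without si-GPD1L 2, 0.0656 without si-GPD1L 3 and 0.0647 with transcript counts summed by gene.

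**Figure D3:**
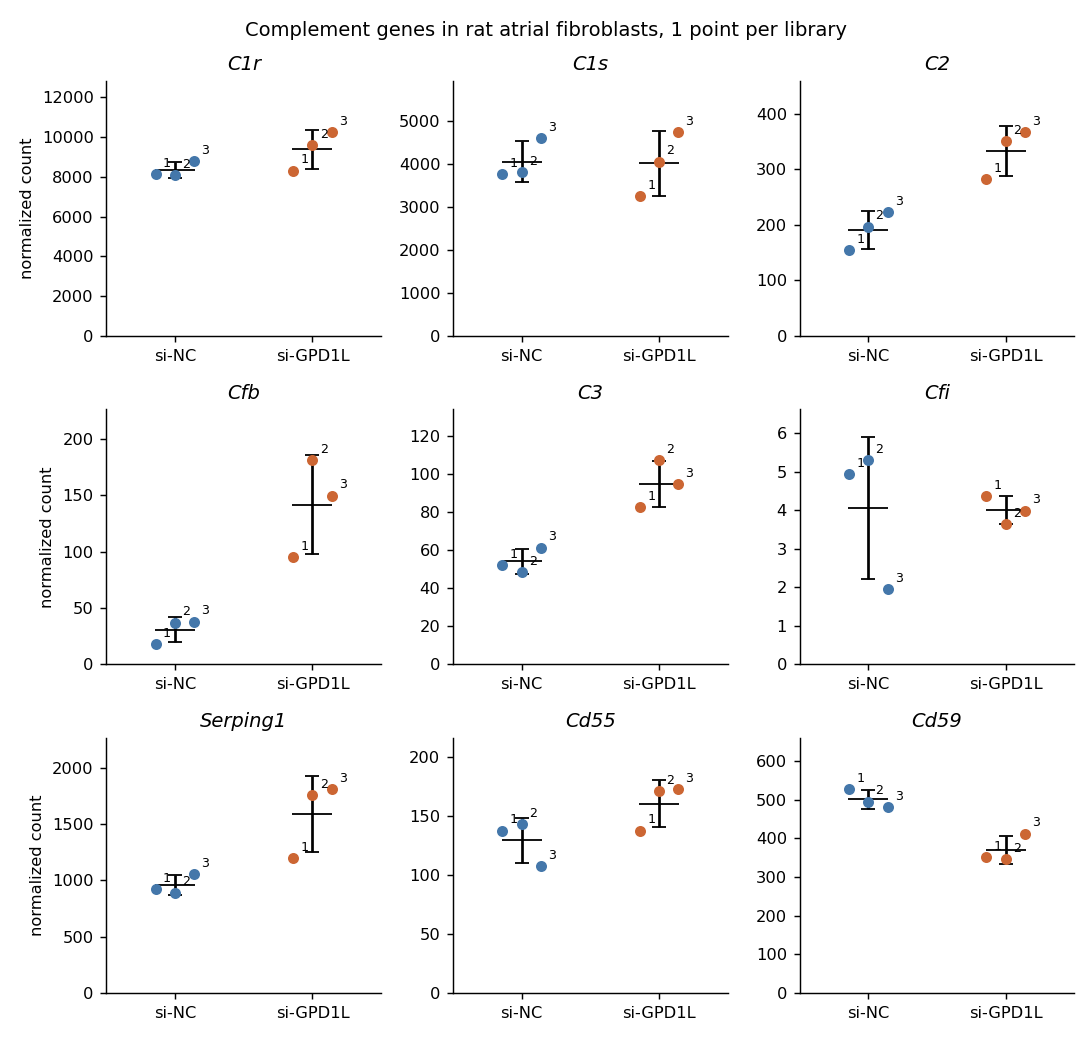
Normalized counts of each of the 9 genes in the 3 si-NC and 3 si-GPD1L libraries, 1 panel per gene, with points marked by replicate number and the mean and SD of each group. The groups are apart in the panels of C2, Cfb, C3, Serping1 and Cd59 and overlap in those of C1r, C1s, Cfi and Cd55.

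Of the fluid-phase inhibitors, Serping1 rose and Cfi was too scarce to test. Serping1 (ID 295703, chr3:72161230-72171109, minus strand), the serpin that inactivates C1r and C1s, gave 921, 891 and 1057 normalized counts in si-NC and 1198, 1760 and 1812 in si-GPD1L. The groups did not overlap, and si-GPD1L 1 lay closest to the si-NC libraries. The level rose 1.66-fold (95% interval 1.36 to 2.03), a log2 fold change of 0.73 (SE 0.13) with an edgeR adjusted p of 0.00614. Without si-GPD1L 2 the log2 fold change was 0.65 and the adjusted p 0.052.

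Set against its target proteases, Serping1 was higher in every si-GPD1L library, which largely restates its own rise beside C1r and C1s, which did not pass. The TPM ratio of Serping1 to C1s was 0.371, 0.356 and 0.349 in si-NC and 0.561, 0.659 and 0.580 in si-GPD1L. Its ratio to C1r was 0.160, 0.156 and 0.170 in si-NC and 0.204, 0.260 and 0.250 in si-GPD1L. The groups did not overlap for either ratio, and each had an exact two-sided permutation p of 0.10 (0.125 adjusted over the 5 ratios). For C1r to C1s, given above, the groups overlapped and the exact permutation p was 0.20.

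Cfi (ID 79126, chr2:235264149-235305779, plus strand), the protease that degrades the C3 and C4 fragments, was barely detected. It had 5, 5 and 2 counts in si-NC and 4, 4 and 4 in si-GPD1L, where a gene at 0 could still have up to 3 counts. No difference was detectable at this depth. The span given for Mcub, which had 120 to 166 counts, covers Cfi on the other strand. If the counting ignored strand, reads could not be told apart where exons of the 2 genes overlap. Whether their exons overlap was not checked.

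Of the membrane inhibitors, Cd59 fell and Cd55 did not pass the test. Cd59 (ID 25407, chr3:94010481-94028660, plus strand; Cd59b in the current RefSeq), which blocks assembly of the terminal pore, gave 528, 495 and 480.2 normalized counts in si-NC and 351, 346 and 412 in si-GPD1L. All 3 si-GPD1L libraries lay below all 3 si-NC libraries. The log2 value fell by 0.44 (SE 0.098), to a fold of 0.738 (95% interval 0.637 to 0.855), with an edgeR adjusted p of 0.0203. The adjusted p was 0.0577 without si-NC 2, 0.110 without si-GPD1L 1 and 0.132 without si-GPD1L 2, with the direction kept.

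Cd55 (ID 64036, chr13:47125156-47153557, minus strand), which speeds the decay of the C3 convertases, gave 137, 143 and 107 normalized counts in si-NC and 137, 171 and 173 in si-GPD1L. The library si-GPD1L 1 lay within the si-NC range. The log2 fold change was 0.32 (SE 0.15), with a 95% interval of the fold of 0.988 to 1.57 and an edgeR adjusted p of 0.248. The TPM ratio of Cd55 to Cd59 was 0.119, 0.132 and 0.102 in si-NC and 0.179, 0.226 and 0.192 in si-GPD1L. This ratio was higher in all 3 si-GPD1L libraries, with an exact permutation p of 0.10 (0.125 adjusted).

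Libraries of 1 group differed in the same way for many members. The library si-GPD1L 1 was the lowest of its group for 7 of the 8 tested members, and si-GPD1L 3 was the highest for 6. In si-NC, the library si-NC 3 was the highest for 6 of 8. The same counts were not made over all genes tested, so whether this pattern is particular to the members was not tested. With each library left out in turn, between 2 and 5 members passed the test; the 2 that passed without si-GPD1L 2 were C2 and Cfb.

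**Figure D4:**
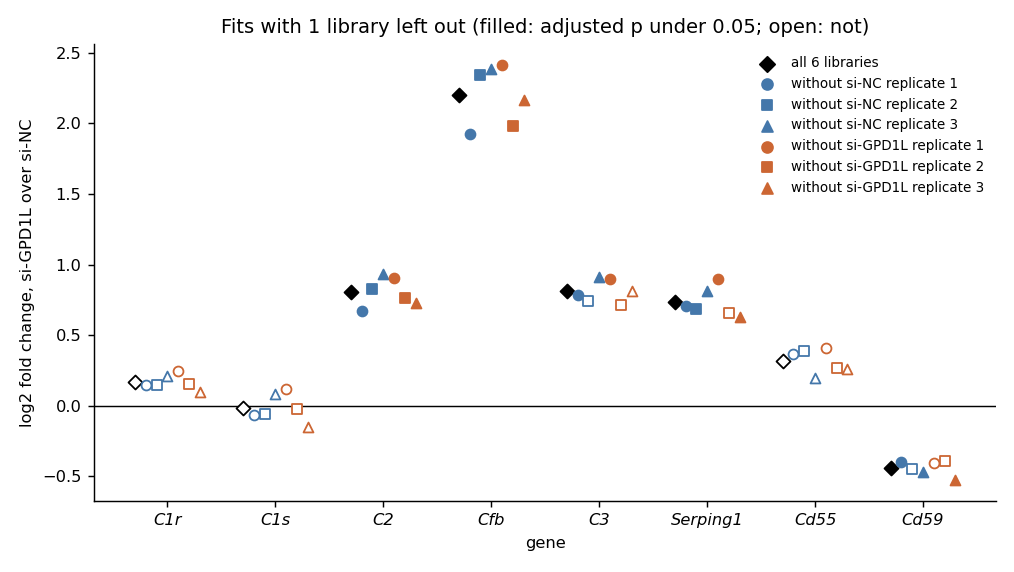
Log2 fold change of the 8 tested members with all 6 libraries and with each library left out. Cfb stays above 1.92, C2, C3 and Serping1 stay above 0, Cd59 stays below 0, and C1s is the member that crosses 0, from -0.15 to 0.12.

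Most of the other complement genes did not pass the test. A list of 49 further components, receptors and regulators had 47 in the table, of which 29 were tested. Of these 29, 2 rose (C4a and C4b), 2 fell (C7 and Colec10) and 25 did not pass, with a median log2 fold change of -0.037, from -1.13 to 2.25. Over all genes tested, 6.36% passed. In 9 of the 29 the groups did not overlap, beside 29.0% of all genes tested. The 18 not tested had at most 16 counts in a library, and 9 of them were at 0 in every library.

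C4a and C4b encode C4, which the classical pathway needs beside C2 to form its convertase. C4a (chr20:2651599-2678183) gave 29.7, 33.9 and 59.5 normalized counts in si-NC and 107, 225 and 253.5 in si-GPD1L, with a log2 fold change of 2.25 (SE 0.32) and an edgeR adjusted p of 0.00102. C4b (chr20:4302344-4316752) gave 24.7, 34.9 and 44.9 in si-NC and 96.0, 153 and 183 in si-GPD1L, with a log2 fold change of 2.04 (SE 0.27) and an edgeR adjusted p of 0.000455. Neither gene's groups overlapped, and both calls held under all 14 alternatives. Another gene of the table, LOC103689965 (chr20:4495440-4508232), named as C4-like and chosen after its values were seen, had a log2 fold change of 1.79 (SE 0.28, edgeR adjusted p 0.00211) and lies within the span given for Stk19. The sequences of these copies were not compared here. Reads could be split between similar copies, so the value of any 1 copy is uncertain.

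C7, a subunit of the terminal pore, was the most abundant complement gene of the list, at 555 TPM in si-NC and 379 TPM in si-GPD1L. Its normalized counts were 18586, 18461 and 23083 in si-NC and 9844, 12069 and 16918 in si-GPD1L, with no overlap. The log2 value fell by 0.63 (SE 0.16), with an edgeR adjusted p of 0.0378. It was lost in 6 of 14 alternatives, where the adjusted p was 0.0619 to 0.188: without si-NC 2, si-NC 3, si-GPD1L 1 or si-GPD1L 2, in the DESeq2 Wald test and with transcript sums. Colec10, a collectin of the lectin pathway, was low and fell by 1.13 on the log2 scale (SE 0.30, edgeR adjusted p 0.045), from 35.6, 29.6 and 32.2 to 12.0, 19.1 and 13.0 normalized counts, a call lost in 9 of 14 alternatives: each library left out, the DESeq2 Wald test, transcript sums and the replicate block, with adjusted p up to 0.18.

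The most abundant of the genes that did not pass were C1qbp, a C1q-binding protein, Cr1l, a convertase regulator, Colec12, a scavenger receptor collectin, Clu, a fluid-phase inhibitor of the pore, Itgb2, a chain of the complement receptor integrins, and Cd93. Their log2 fold changes were -0.055 for C1qbp, -0.14 for Cr1l, -0.28 for Colec12, -0.037 for Clu, 0.12 for Itgb2 and 0.21 for Cd93. Their edgeR adjusted p ran from 0.0824 for Colec12, which came under 0.05 in 3 alternatives, to 0.804 for Clu. The C1q chains, named here after their values were seen as the partners of C1r and C1s, were scarce, with mean normalized counts of 22.9, 12.5 and 20.2 for C1qa, C1qb and C1qc in si-NC and 26.5, 18.0 and 18.3 in si-GPD1L. None passed the test, with edgeR adjusted p of 0.827, 0.43 and 0.919.

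**Figure D5:**
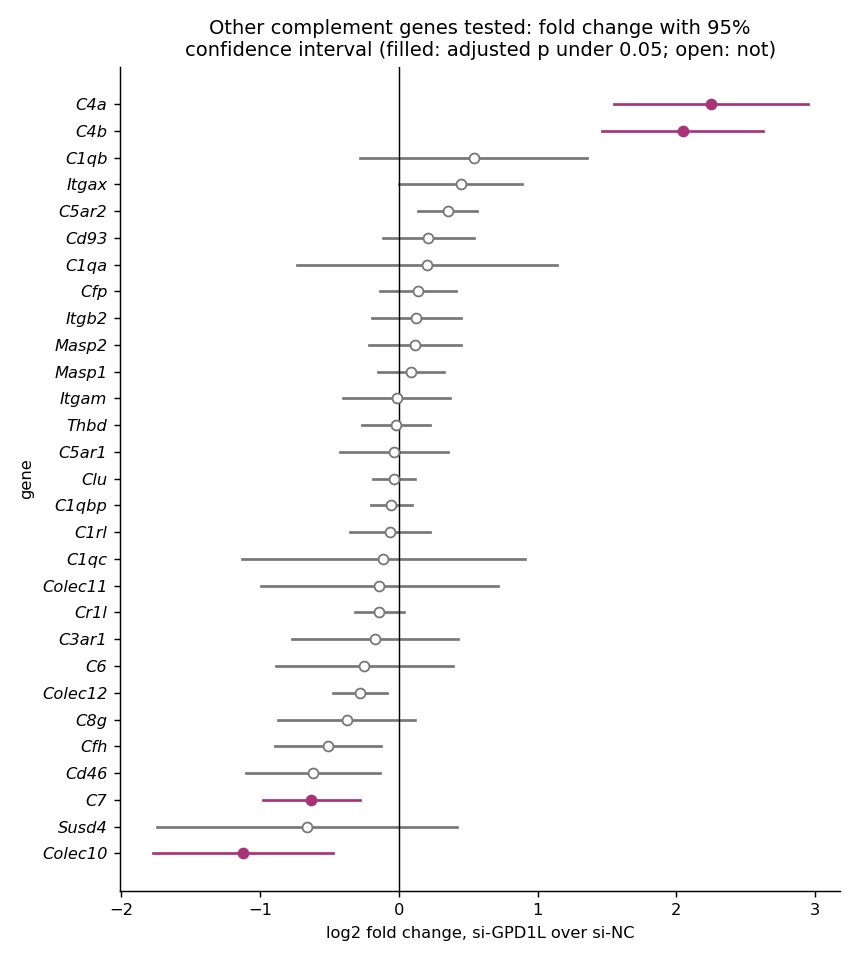
Log2 fold change of the 29 other complement genes tested, si-GPD1L over si-NC, with 95% confidence intervals and filled points where the adjusted p was under 0.05. C4a and C4b stand apart at 2.25 and 2.04, C7 and Colec10 are the 2 filled points below 0, and the other 25 have open points.

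The neighbourhoods of the members were examined within 100 kb. Around C2 and Cfb, 11 of 15 other genes were tested and 1 was higher, the C4-like LOC103689965, with a median log2 fold change of 0.018 over the 11. Of these 11, 4 had an unadjusted p under 0.05, 1 passed in DESeq2 and 2 in edgeR's exact test. Around Serping1, 2 of 10 tested genes were higher: Ube2l6, a ubiquitin-conjugating enzyme used for ISG15, at 1.71 (edgeR adjusted p 3.26e-07), and Zdhhc5, a palmitoyltransferase, at 0.26 (edgeR adjusted p 0.0464). Of these 10, 5 had an unadjusted p under 0.05, 2 passed in DESeq2 and 3 in edgeR's exact test. Around C1r and C1s, 0 of 7 tested genes passed in edgeR's quasi-likelihood test, 0 at an unadjusted p under 0.05, 0 in DESeq2 and 0 in edgeR's exact test, with log2 fold changes from -0.11 to 0.49. Around C3 and Cd59, with 3 and 2 tested genes, 0 passed in these 3 tests and 1 at each locus had an unadjusted p under 0.05. Over all genes tested, 6.36% passed in edgeR's quasi-likelihood test, and the share at an unadjusted p under 0.05 was not computed. Both genes near Serping1 were chosen after their values were seen.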

How the data were processed

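The authors deposited raw read counts and TPM per gene and per transcript for the 6 libraries. The submitters' processing notes name bcl2fastq, HISAT2 2.1.0, HTSeq 0.12.4 and the build rn6; the strand setting is not given in the sources used here. The deposited TPM equalled counts per gene length scaled to a common sum, to within 4.91e-11. The authors' own comparison and enrichment tables were not used. Members and lists were chosen with earlier results of these data known. Named genes were Gpd1l, the members, other complement genes with an adjusted p under 0.05 or, of the rest, the 6 most abundant, and the gene most alike to each member that passed.

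In R 4.3.3, edgeR 4.0.16 kept 14852 genes by filterByExpr, applied TMM scaling and tested si-GPD1L against si-NC by glmQLFit and glmQLFTest, with Benjamini-Hochberg adjustment. SEs were derived from the F statistic. Library totals of 16892255 to 20149732 counts set the precision, and 0 counts allow up to 3 (counting error only). In simulated data with 14667 genes tested, 91 of 100 genes changed 2-fold and 99 of 100 changed 4-fold were recovered, with 15 false calls. The changed genes were drawn only from those above a minimum mean count, and counts varied independently between genes. The recovery therefore does not cover scarcer genes or shifts that many genes of a library share. Alternatives were DESeq2 1.42.0 size factors, upper-quartile factors, the DESeq2 Wald test, the edgeR exact test, other filters, the replicate block, each library left out and transcript sums. Libraries of 1 group differed beyond sampling noise (chi-square per degree of freedom 3.89 to 27.4). The pairs with si-NC 1 gave 19.7 and 27.4, si-NC 2 with si-NC 3 gave 8.35, and the pairs within si-GPD1L gave 3.89 to 5.81. Without si-NC 1 the log2 fold change was 1.92 for Cfb and 0.67 for C2, for both genes the smallest of the 14 alternatives. Figures were drawn with matplotlib 3.10.9.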

Additional observations from a re-analysis of the deposited data

How the results depend on the processing

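Of 112 member values under the 14 alternatives, 102 kept their direction and side of the threshold, 8 kept their direction but no longer passed, and 2 changed sign. Both sign changes were of C1s, which did not pass in any setting: it was 0.085 without si-NC 3 and 0.12 without si-GPD1L 1, within a range of -0.15 to 0.12 over the libraries left out. Itgb2, which also passed in none, ran from -0.047 to 0.26 over them. The number of members with an adjusted p under 0.05 was 2 to 5 with each library left out, and that of the other complement genes 2 to 6. The other complement genes that passed numbered 2 in the DESeq2 Wald test, 2 with transcript counts summed by gene, and 6 in the edgeR exact test and without the low-count filter, beside 4 as reported. The cause was not tested. Over all genes, 240 passed both the adjusted p and a log2 fold change of 1, and 164 to 359 under the alternatives. Whether same-numbered libraries shared a culture or batch is not given by the labels. Over all genes tested, the deviations of same-numbered libraries correlated at -0.016, -0.0058 and 0.044, and not every library correlated best with its own number. Scarce genes weigh as much as abundant ones in these correlations, so they cannot exclude a shared culture or batch. With the replicate number as a block, 5 members, 4 other complement genes and, over both thresholds, 223 of all genes passed, and Colec10 was not among the 4 (adjusted p 0.068). The median log2 fold change of all genes was -0.0049 with TMM, -0.0058 with DESeq2 size factors and -0.029 with upper-quartile factors. Depth limits Cfi most, at 2 to 5 counts in a library.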

Other observations

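As a description, the gene whose log2 normalized counts over the 6 libraries were most like those of each member that passed was looked up among 11031 candidates. The Pearson correlation was 0.997 between Cfb and Nlrp1a, 0.994 between C2 and one of the table's entries for Intu, 0.993 between C3 and the endothelial marker Pecam1, 0.9985 between Serping1 and Atp8b1, and 0.995 between Cd59 and Mrpl34. The 6 points are 2 groups of 3 and share libraries and depth, so genes that differ between the groups correlate with each other.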
